A study of Mus musculus with 20 samples.

Results

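Conventional dendritic cells type 2 (cDC2) of mouse interscapular brown adipose tissue (iBAT) are described here, selected on their own counts in the lineage-positive (Lin+, immune) libraries of a single-cell RNA-seq series. A cell was a member where its values summed to at least 2 for Cd209a and at least 5 for H2-Ab1, to below 2 for C1qa and C1qb together, to below 1 for Xcr1 and Clec9a together, to below 4 for Ccr7, Fscn1, Ccl22 and Il4i1 together, and to below 1 for Cd79a and Cd3e together. Cells also had under 10% mitochondrial counts, under 15000 counts in all and 500 to 4000 genes. This rule chose 1661 of 50165 kept Lin+ cells (3.31%), with 21 to 369 members per library.

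The series asked how iBAT stromal and immune cells change when the tissue is recruited by cold or by a β3-adrenergic agonist. Digested iBAT of 3 to 4 mice was pooled for each experiment and split on magnetic beads with a cocktail of lineage antibodies, one of which binds CD11b (the product of Itgam). Lin+ and Lin- cells were run as separate 10X Genomics libraries, which gave 20 libraries from 10 experiments. The values are cell counts and transcript counts of the 10 Lin+ libraries, with the Lin- libraries used for one relation only.

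C57BL/6J males were kept at room temperature (RT, 24 °C), at 6 °C for 4 days (COLD), or at RT with a pump that delivered the β3-adrenergic agonist CL316,243 at 0.75 nmol/hour for 4 days (CL), with 2 experiments each and kit version 2 throughout. Females of a second line carried Adrb1 fl/fl alleles either without the driver (Pdgfra-CreER -/-, WT) or with it (Pdgfra-CreER +/-, KO), and were held at RT (kit version 3) or COLD (kit version 2), with 1 experiment each. All mice were 8 to 14 weeks old, and WT and KO both received tamoxifen. CreER was driven by Pdgfra, a gene of stromal cells, so the deletion was not aimed at dendritic cells. In the gated stromal cells of the Lin- libraries Adrb1, the β1-adrenergic receptor and the target of the deletion, stood at 1.20 CPM (counts scaled to the same total in each library) in WT at RT and 0.506 CPM in KO at RT. After cold it stood at 3.68 CPM in WT and 0.648 CPM in KO, so KO was lower at both temperatures. Among the members Adrb1 had a summed value of 0 in all 4 libraries of this line, and of at most 2.00 in any library. In this line the treatments were also collected on different days, so kit, day of collection and temperature cannot be told apart. Sex, strain and line cannot be told apart between it and C57.

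Dendritic cells take up antigen in tissue and present it to T cells on MHC class II. The type 2 subset depends on transcription factors such as Irf4 and Klf4, carries Sirpa and CD11b, and presents mainly to CD4 T cells, whereas the type 1 subset (cDC1) carries Xcr1 and Clec9a, depends on Irf8 and Batf3, and excels at cross-presentation to CD8 T cells. Type I interferons act on most cells through a receptor at the surface and transcription factors that it activates, and dendritic cells both make and answer them.

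Depth differed between libraries. Members had a median of 3581 to 9618 counts each, their summed counts in the 6 C57 libraries ranged from 472175 to 2014510, and the median over all kept Lin+ cells was 2011 and 2255 in C57 RT against 4737 and 4655 in C57 COLD. No barcode was shared between members of any of the 45 pairs of libraries. The 12 mitochondrial genes that passed the filter on low counts summed to 13026 and 2463 CPM in the C57 RT members, 2911 and 1251 CPM in COLD, and 637 and 12610 CPM in CL, so the groups overlapped in this sign of RNA quality.

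Markers that the rule did not use are given here beside the label. Tnfsf9 (4-1BB ligand) had a median of 373 CPM over the 10 libraries in the members, against 19.9 in cDC1, 69.3 in macrophages with MHC class II and 33.5 in monocytes. Ffar2, a receptor for short-chain fatty acids, stood at 34.9 CPM against 0 in cDC1, 0.645 in those macrophages and 0 in monocytes, and was higher in the members in 9 of 10 libraries. Clec4b1, a C-type lectin, stood at 431 CPM against 45.4, 294 and 19.4 CPM, so it separated the members from cDC1 and monocytes far more than from macrophages. These are descriptions without a test, since the same cells gave the rule and the values. The marker lists were also chosen with earlier results of these data known, so they are no independent check of the label.

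Other genes linked with cDC2 were present at uneven levels. Clec10a and Mgl2, both galactose-type lectins, had medians of 487 and 483 CPM in the members and 4.92 and 4.43 in cDC1, while Mgl2 was higher in the macrophages (715 CPM). Sirpa stood at 151 CPM and Itgam at 138 CPM, against 6.18 and 5.33 in cDC1. Both medians were higher in monocytes (207 and 170 CPM) and in the macrophages (300 and 163 CPM). Library by library, Itgam was higher in the members than in monocytes in 4 of 10 and than in the macrophages in 6 of 10. For Sirpa these counts were 2 and 0. Of the 17 genes of this list, 10 were above cDC1 in all 10 libraries, 7 above monocytes and 6 above the macrophages. Clec12a was below cDC1 in all 10 (128 against 225 CPM). Esam, Clec4a4 and Cd4, which mark cDC2 of other organs, were near 0 with medians of 1.55, 1.24 and 8.17 CPM.

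Dendritic cell genes shared by both subsets set the members apart from monocytes and macrophages. All 8 genes of that list were higher in the members than in monocytes in each of the 10 libraries. In the same way 7 of 8 were higher than in the macrophages. Against cDC1 0 were higher in all libraries and 3 were lower in all, Flt3, Zbtb46 and Dpp4. Flt3, the receptor of the growth factor that maintains dendritic cells, had a median of 96.2 CPM in the members, 175 in cDC1, 3.21 in the macrophages and 17.8 in monocytes. Zbtb46, a transcription factor of conventional dendritic cells, stood at 23.9 CPM, against 34.5, 2.12 and 1.02 CPM.

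Monocyte genes were not absent. Ccr2, the chemokine receptor that brings monocytes out of marrow, had a median of 541 CPM in the members and 628 in monocytes. It was also present in cDC1 (348 CPM) and in the macrophages (405 CPM). Plac8 stood at 1066 CPM against 3932, and Ly6c2 at 177 CPM against 2523. The monocytes were gated on Ly6c2 of at least 2, so its higher level there was set by that gate. The same gate also held T and NK cell markers, as given below. Of the 10 monocyte markers, 9 were below the monocyte level in all 10 libraries, Ly6c2 among them. Of 13 macrophage markers, 12 were below the macrophage level in all. Apoe, abundant in tissue macrophages, stood at 73.1 CPM against 13795 in macrophages, and Mertk, a receptor for dying cells that defines tissue macrophages, had a median of 0. The study describes a cluster with Cd209a and Itgam as monocyte-derived dendritic cells, a different name from the one used here. It gives Clec4b1 and Tnip3 for that cluster too. Both genes are on the cDC2 lists used here, so they do not tell the names apart. In Flt3 and Zbtb46 the members lay between cDC1 and the monocytes and macrophages, and were below cDC1 in all 10 libraries. In Ccr2 they were close to monocytes, and the data do not say from which precursor they came.

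**Figure D1:**
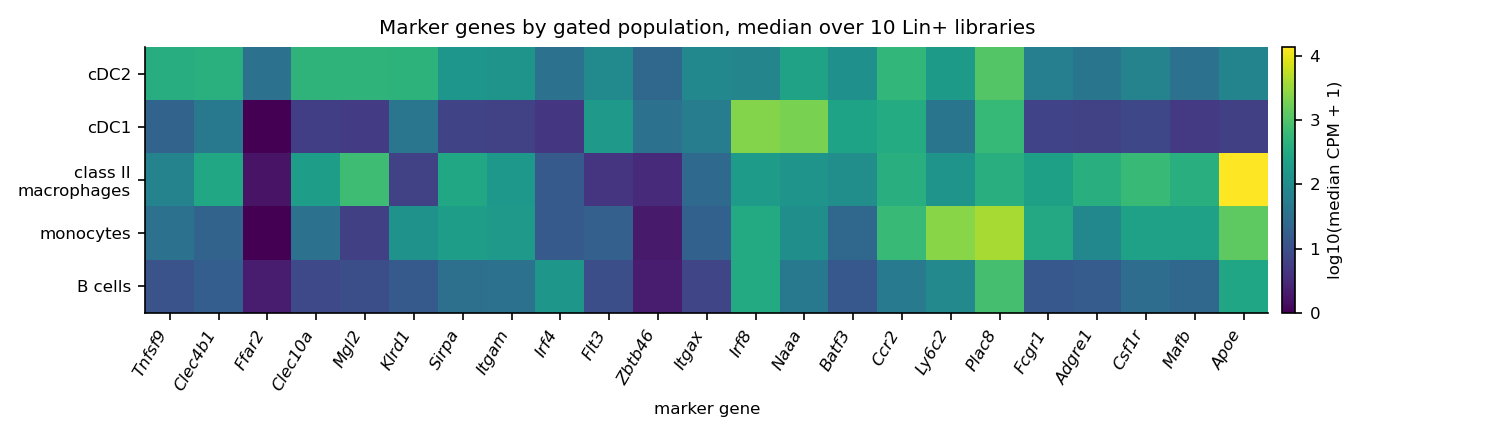
Median level of 23 marker genes, as log10(median CPM + 1) over 10 Lin+ libraries, in cDC2 and 4 other populations gated on their own genes. Tnfsf9, Clec10a and Ffar2 are brightest in the cDC2 row, Irf8 and Naaa in the cDC1 row, Ly6c2 in the monocyte row and Apoe in the macrophage row. The monocytes were gated on Ly6c2.

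Cells on either side of the Cd209a threshold had like levels of Clec10a and Tnfsf9 but not of Ly6c2. The 268 cells with a Cd209a value of 1.5 to 2 that met the rest of the rule had 297 CPM of Clec10a and 311 CPM of Tnfsf9, the 188 members at 2 to 3 had 346 and 292 CPM, and the 1180 members at 5 or more had 556 and 481 CPM. Irf8, a gene of cDC1, ran the other way, from 110 CPM just outside and 170 just inside to 65.9 at 5 or more. Ly6c2, a monocyte gene, stood at 289 CPM just outside, 483 just inside and 173 at 5 or more, so it was highest just inside.

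Within the population the lectins were patchy. At a fixed depth of 2000 counts per cell, Clec10a was detected in 41.6 to 54.5% of members across the 10 libraries (median 46.6%), against 0.406 to 12.5% of B cells, which should lack it and were thinned to the same depth. Ltb (lymphotoxin β) was found in 5.57 to 12.4% of members and in 0 to 10.0% of cDC1, ranges that overlap. Fcgr1, the high-affinity IgG receptor common on monocytes, was found in 2.42 to 28.9% of members and 7.78 to 57.7% of monocytes, against at most 4.69% of cDC1 and 0 to 9.84% of B cells. It is taken up again below, since its level followed the treatment.

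Members made up more of the Lin+ cells after cold. In C57 they were 2.65% (95% exact binomial interval 2.18 to 3.19) and 2.80% (2.33 to 3.32) of kept Lin+ cells at RT, 4.81% (4.34 to 5.31) and 5.48% (4.92 to 6.07) after cold, and 2.2% (1.83 to 2.61) and 1.90% (1.55 to 2.32) after CL. Neither COLD interval touched an RT interval, all lying higher, and the CL point values were under those of RT. In the Adrb1 line the share was 1.29% (0.931 to 1.75) in WT at RT and 3.97% (3.55 to 4.41) in WT after cold, and 0.956% (0.593 to 1.46) in KO at RT and 3.28% (2.71 to 3.92) in KO after cold. Shares after cold were higher in each of the 4 experiments than in any RT experiment. This separation ended without the minimum of 500 genes, where KO after cold stood at 2.35% and the second C57 RT library at 2.48%. It also ended after thinning to 1500 counts, where they stood at 2.45 and 2.57% (exact permutation p = 0.0571 over both lines in each setting). Within C57, within WT and within KO, shares after cold stayed above those at RT in both settings. KO at RT stood at 0.866 and 0.336% there.

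The C57 means were 5.14% ± 0.473 (SD, n = 2) after cold and 2.72% ± 0.101 (SD, n = 2) at RT, a difference of 2.42 percentage points (exact two-sided permutation p = 0.333, the smallest that 2 against 2 allows). Over both lines the means were 4.38% ± 0.961 and 1.92% ± 0.935 (n = 4 each), a difference of 2.46 points (exact two-sided permutation p = 0.029, adjusted 0.0857 over the 3 comparisons of the share). Within the Adrb1 line alone the difference was 2.50 points (exact permutation p = 0.333, n = 2 each). CL differed from RT by -0.674 points (exact permutation p = 0.333, n = 2 each). The Lin sort and the depth can set such shares: cells thinned to 1500 counts before the rule was applied gave a C57 difference between COLD and RT of 2.07 points, and a denominator without B cells, which ranged from 144 to 1161 per C57 library, gave 1.93 points.

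In C57 cDC1 went from 1.54% at RT to 6.07% after cold, and cDC2 per cDC1 fell from 1.80 ± 0.398 at RT to 0.848 ± 0.00441 after cold, with 1.39 ± 0.00533 after CL (SD, n = 2 each). Over both lines the ratio was 2.03 at RT and 1.19 after cold (exact two-sided permutation p = 0.0571, n = 4 each). The groups overlapped, with 1.74 in KO after cold against 1.52 in the first C57 RT library. Within the Adrb1 line the ratio went from 2.41 to 1.33 in WT and from 2.10 to 1.74 in KO. In the Adrb1 line cDC1 went from 0.537 to 2.98% in WT and from 0.455 to 1.88% in KO. Cells of the monocyte gate, which also held T and NK cell markers, were 7.15% of C57 Lin+ cells at RT and 8.33% after cold, and macrophages with MHC class II were 16.8% and 8.55%.

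Cycling members were few and did not separate the treatments. A member was called cycling where it held at least 3 counts of 18 genes of the G2 and M phases after thinning to 2000 counts, which 175 of 1642 members did (10.7%), while 19 members were too shallow to be thinned. Before thinning 240 members passed the same count. The C57 libraries gave 11.2 and 6.45% at RT, 11 and 14.2% after cold, and 11.6 and 6.19% after CL, and the ranges of the groups overlapped. The mean was 12.6% ± 2.22 after cold and 8.83% ± 3.37 at RT (SD, n = 2 each, exact permutation p = 0.667, adjusted 1), and over both lines 10.6 and 8.66% (n = 4 each, exact permutation p = 0.514). B cells, thinned alike, gave 0.588 to 9.52% per library, a range that overlaps with that of the members. Library by library, the share in members was above that in B cells each time. The highest B cell value was 4 of 42 cells in the first C57 COLD library, with 236 too shallow to be thinned. Cycling members carried fewer counts of interferon response genes than the other members of their library in all 10 libraries, for example 3.00 against 7.87 per 2000 counts in the first RT library and 15.7 against 24.5 in the first COLD library. In the KO library at RT the values were 4.00 and 4.15, with 1 cycling cell.

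**Figure D2:**
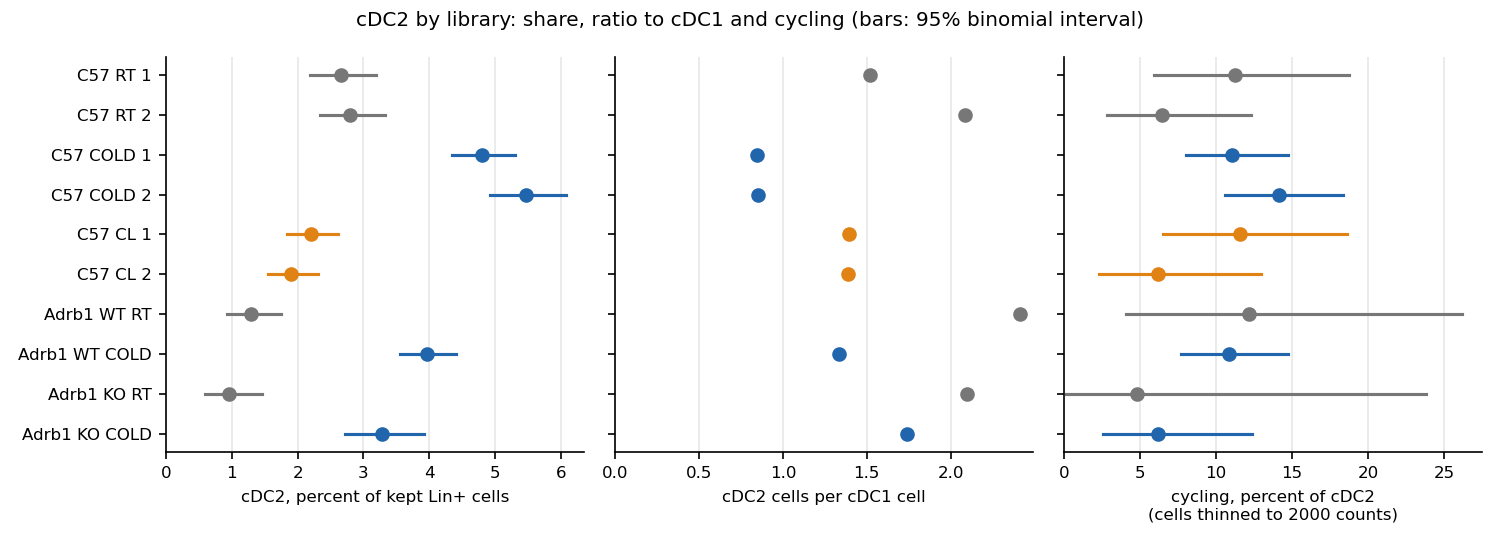
Share of cDC2 among kept Lin+ cells (left, percent), cDC2 cells per cDC1 cell (middle) and cycling share of cDC2 (right, percent, cells thinned to 2000 counts) in each Lin+ library. Points are libraries and bars are 95% exact binomial intervals. The 4 COLD libraries lie to the right of all RT libraries in the left panel, and cycling shares overlap.

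After cold, 25 of 28 interferon response genes were higher in the members, 5 of 15 genes of the sterol list were lower, and Retnla, Fcrls and Mt2 were among the genes that fell furthest. Counts were summed over the members of each library and compared over the 6 C57 libraries with edgeR's quasi-likelihood test and Benjamini-Hochberg adjustment. Of 6865 genes tested, 314 passed an adjusted p of 0.05 between COLD and RT (4.57%), 148 higher after cold (2.16%) and 166 lower (2.42%). These percentages are the background against which the lists below are read. Scaling libraries by their total counts in place of trimmed means (TMM) put the median gene at 0.24 in place of 0.01 log2 between COLD and RT and gave 260 higher and 112 lower of 372, so the balance of directions depends on the scaling.

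The interferon response list held 28 genes, of which 25 rose after cold and none fell, with a median log2 change of 2.56 against 0.01 for all genes tested. Its summed level in the members was 3307 and 4084 CPM at RT, 11556 and 11666 CPM after cold, and 6110 and 6451 CPM after CL in C57. The 3 groups did not overlap, and CL lay between the others. The 3 genes that did not pass were Ifih1 and Stat2, a viral RNA sensor and a transducer of interferon signals, and Bst2 (tetherin), with log2 changes of 1.62, 0.88 and 1.06.

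Ifit3, a binder of viral RNA complexes, stood at 8.68 and 14.2 CPM at RT, 246 and 336 CPM after cold, and 46.6 and 49.2 CPM after CL. The groups did not overlap. Its log2 change between COLD and RT was 4.39 ± 0.31 (SE, edgeR adjusted p = 5.11e-05). Ifit1, of the same family, stood at 5.21 and 5.18 CPM at RT and 129 and 206 CPM after cold, with no overlap, a log2 change of 4.76 ± 0.40 (edgeR adjusted p = 0.000147). Ifit3 shares sequence with Ifit3b, and Ifit1 with Ifit1bl1, so reads may have been split within each pair.

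Rsad2 (viperin, an antiviral enzyme) stood at 8.68 and 14.2 CPM at RT, 194 and 218 CPM after cold and 50.8 and 49.2 CPM after CL. Both cold libraries were far above the rest. Irf7, the factor that amplifies type I interferon, stood at 33.0 and 60.9 CPM at RT, 509 and 530 CPM after cold and 121 and 127 CPM after CL, with no overlap between groups. Isg15, a ubiquitin-like modifier, stood at 88.5 and 101 CPM at RT, 763 and 671 CPM after cold and 201 and 174 CPM after CL. Their log2 changes between COLD and RT were 3.89 ± 0.28, 3.22 ± 0.29 and 2.69 ± 0.24 (edgeR adjusted p = 5.11e-05, 0.000219 and 0.000196). Oasl1, of the oligoadenylate synthetase family, had 0 counts in both RT libraries and 209 in both cold libraries together, which makes it at least 24.1-fold higher against a floor of 3 counts over the RT group. Each of Ifit1, Ifit3, Rsad2, Irf7 and Isg15 stayed past the threshold without any one library.

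One gene made up much of the list: Ifitm3 stood at 2326 and 2757 CPM at RT, 5669 and 5699 CPM after cold and 3819 and 4345 CPM after CL. It therefore weighs heavily in sums and counts per cell. The summed list rose 3.14-fold between the C57 means at RT and after cold, more than Ifitm3 itself. Over the 10 libraries Irf7 was detected in 4.67 to 44.4% of members, Ifit3 in 0 to 38.1% and Rsad2 in 0.935 to 23.0% at 2000 counts. At 2000 counts per cell the median member held 5 and 6 counts of the list at RT, 19 and 19 after cold, and 11 and 10 after CL. Members with at least 10 counts were 27.1 and 35.5% at RT, 80.7 and 82.5% after cold, and 57 and 50.5% after CL. Members with none were at most 4.88% in any library. Among the other populations the list summed to 1241 and 860 CPM in cDC1 at RT and 4078 and 4699 CPM after cold, and to 810 and 832 CPM in B cells at RT and 1249 and 1874 CPM after cold. Monocytes stood at 5915 and 5297 CPM at RT and 16281 and 11682 CPM after cold, above the members in each of these libraries, by little in the second COLD library. The cells of the monocyte gate also held T cell markers at 1059 and 2408 CPM at RT and 424 and 1365 CPM after cold, and NK cell markers at 1105 and 2045 CPM and then 333 and 854 CPM, so they are not monocytes alone. Macrophages with MHC class II had C57 means of 2815 CPM of the interferon list at RT and 8979 CPM after cold. Between the C57 means that sum rose 4.18-fold in cDC1 and 3.19-fold in those macrophages. The rise was 2.49-fold in the monocyte gate and 1.90-fold in B cells.

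Stretches of the promoters of 4 of these genes are shown because the interferon-stimulated transcription factor complex that holds Irf9 is known to bind a pair of GAAA repeats. Each is 100 bases from RefSeq on build GRCm38 (the files were made on mm10, the same assembly), within 250 bases before the start site, printed 5′ to 3′ on the gene's strand. Capitals mark the letters GAAANNGAAA, or their reverse complement, where a script found them, and overlapping matches run together. Ifit1 lies at chr19:34640749-34640848 on the plus strand, Ifit3 at chr19:34583345-34583444 on the plus strand, Rsad2 at chr12:26456518-26456617 on the minus strand and Isg15 at chr4:156200836-156200935 on the minus strand.
Ifit1: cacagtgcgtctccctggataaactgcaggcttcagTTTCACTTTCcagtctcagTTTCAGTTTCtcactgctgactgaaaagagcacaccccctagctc
Ifit3: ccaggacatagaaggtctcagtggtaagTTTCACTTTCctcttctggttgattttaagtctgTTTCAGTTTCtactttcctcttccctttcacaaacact
Rsad2: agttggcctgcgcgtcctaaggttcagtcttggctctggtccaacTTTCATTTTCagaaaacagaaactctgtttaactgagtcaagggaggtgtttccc
Isg15: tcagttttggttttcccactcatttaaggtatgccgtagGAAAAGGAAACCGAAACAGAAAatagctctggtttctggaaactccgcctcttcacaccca

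Ifit1 and Ifit3 hold 2 matches each, Rsad2 holds 1, and Isg15 holds 3 that overlap. Matches on either strand were present in 936 of 27025 genes of the promoter table (3.46%). Of the 28 genes of the list 22 had a promoter in the table (78.6%), of which 10 hold the motif and 12 do not, so the 4 shown are examples from those that do. The matched share is under the 80% needed to compare lists, so a comparison of shares between lists is void. A match describes letters and does not show a bound site.

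**Figure D3:**
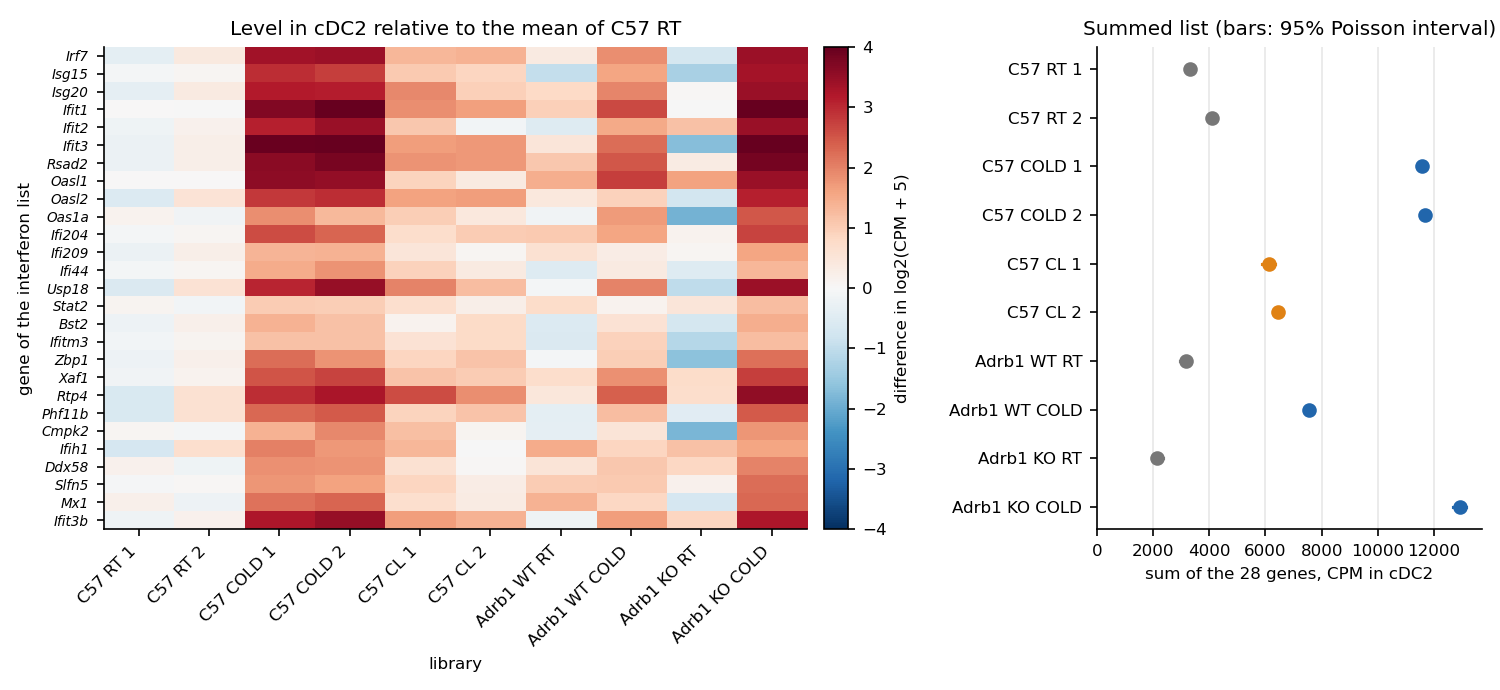
Left, level of interferon response genes in cDC2 of each library as log2(CPM + 5) minus the mean of the C57 RT libraries. Right, the summed list of 28 genes in CPM with 95% Poisson intervals, most of them narrower than the point. Both C57 COLD libraries and the KO COLD library are red for nearly all genes drawn, and the CL and WT COLD libraries are paler.

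Outside the interferon list, Ly6a, Cd72, Fcgr1, Gpnmb, Apod and Plin2 were among the genes that rose. Ly6a (Sca-1, a surface protein that interferon induces in many leukocytes) stood at 24.3 and 41.4 CPM at RT, 672 and 598 CPM after cold and 244 and 249 CPM after CL. The 3 groups did not overlap. Its log2 change between COLD and RT was 4.02 ± 0.29 (edgeR adjusted p = 5.11e-05). Cd72, a lectin-like inhibitory receptor best known on B cells, stood at 13.9 and 25.9 CPM at RT, 285 and 397 CPM after cold and 220 and 46.4 CPM after CL, so the CL libraries differed widely. The change between COLD and RT was 3.83 ± 0.55 (edgeR adjusted p = 0.00300). At 2000 counts per cell it was found in 1.87 and 6.45% of members at RT and 35.3 and 42.8% after cold, against 0 and 0% and 2.06 and 3.29% of cDC1, and the B cell markers summed to at most 43.1 CPM in any library of the members.

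Fcgr1 stood at 12.2 and 15.5 CPM at RT, 213 and 171 CPM after cold and 82.6 and 36.6 CPM after CL, without overlap. Its log2 change was 3.54 ± 0.33 (edgeR adjusted p = 0.000239). Among thinned members of all Lin+ libraries, Fcgr1 was found in 10.8% of 316 with Flt3 and 19.8% of 1326 without it. Ly6c2 was found in 24.2% of 297 members with Fcgr1 and 13.9% of 1345 without it. These shares pool all treatments. A changed mix of cells in the gate was not tested as a source of the rise in Fcgr1. Gpnmb, a glycoprotein of lipid-laden and lysosome-rich phagocytes, had 1 count at RT and 304 after cold, a ratio of 105 (95% counting interval 18.7 to 4160). Apod, a lipid-binding apolipoprotein, had 1 and 339 counts, a ratio of 117 (20.9 to 4637). Plin2, which coats lipid droplets, stood at 29.5 and 72.5 CPM at RT and 283 and 229 CPM after cold, a change of 2.07 ± 0.32 (edgeR adjusted p = 0.00424). Of the 17 genes of lipid handling and the lysosome that were tested, 3 rose (Plin2, Gpnmb and Spp1), none fell and 14 did not pass, with a median of 0.47. The summed list rose less in the members than in the other populations, 1.14-fold between the C57 RT and COLD means. The rise was 1.26-fold in cDC1, 1.76-fold in macrophages, 1.94-fold in B cells and 3.94-fold in the monocyte gate. The study gives Gpnmb, Spp1 and Plin2 as genes of macrophages that appeared after cold. Whether RNA of those macrophages took part in the rises of these genes was not tested. Without possible doublets (members with 2 or more counts of B, T, NK, neutrophil, stromal and erythroid markers), Gpnmb no longer passed. In C57 this setting kept 62 of 108 and 62 of 125 members at RT and 207 of 369 and 156 of 336 after cold. After CL it kept 93 of 124 and 27 of 97, and 4468 genes were tested in place of 6865. Its stromal markers include Gsn, which the members held at a median of 211 CPM, and it counts no macrophage marker. Whether calls lost there were lost through doublets or through fewer counts was not tested.

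Retnla, Fcrls, Cd163 and Mrc1 were among the genes that fell. Retnla (RELMα) stood at 451 and 598 CPM at RT, 4.96 and 11.6 CPM after cold and 8.47 and 353 CPM after CL. The cold libraries were far below RT, and the CL libraries differed widely. Its log2 change was -6.20 ± 1.08 (edgeR adjusted p = 0.00917), which did not pass without the first COLD library or without possible doublets. Fcrls, an Fc receptor-like protein, stood at 125 and 126 CPM at RT and 7.45 and 7.41 CPM after cold, a change of -4.28 ± 0.54 (edgeR adjusted p = 0.00143). Cd163, a scavenger receptor for haemoglobin, stood at 46.9 and 64.7 CPM at RT and 9.93 and 8.99 CPM after cold, and Mrc1, the mannose receptor, at 149 and 93.2 CPM and then 38.2 and 38.6 CPM.

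Of 9 monocyte markers tested 2 fell and none rose, with 5 estimates above 0 and a median of 0.19. Those 2 were Fn1 (fibronectin) and F13a1 (a coagulation factor chain), which fell by 3.78 and 2.16 on the log2 scale. The call of F13a1 was lost without the second COLD or first RT library and without possible doublets. The summed monocyte list had a C57 mean of 1763 CPM at RT and 2540 CPM after cold, so as a whole it was not lower. Of the 12 macrophage markers tested 3 passed, Fcgr1 and Ms4a7 higher and Mrc1 lower, but Ms4a7 was lost without any one of the 4 RT and COLD libraries and with DESeq2. The summed macrophage list stood at 1029 and 810 CPM at RT and 1195 and 1145 CPM after cold. It includes Cd68, Cd14 and Fcgr1, which the members held at medians of 287, 192 and 59.4 CPM over the 10 libraries. Retnla was detected at 2000 counts in 12.1 and 7.26% of members at RT and 1.65 and 1.20% after cold, beside 9.41 and 7.98% and then 2.38 and 1.64% of B cells, so these shares were near the background at both temperatures and are not read as expression per cell. Whether macrophage RNA took part in these falls was not tested.

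Mt2 and Mt1, metallothioneins that bind zinc and answer metals and glucocorticoids, fell together. Mt2 stood at 337 and 326 CPM at RT, 30.3 and 25.4 CPM after cold and 31.8 and 120 CPM after CL, and Mt1 at 1403 and 1334 CPM, then 235 and 261 CPM, then 318 and 961 CPM. Both cold libraries were below both RT libraries for each gene. The log2 changes between COLD and RT were -3.79 ± 0.45 and -2.69 ± 0.46 (edgeR adjusted p = 0.00108 and 0.00845), and Mt1 did not pass without the first COLD library. Ccl17, a chemokine of Ccr4-bearing T cells, stood at 227 and 63.4 CPM at RT and 8.94 and 44.4 CPM after cold, and its call was lost without the first COLD or the first RT library and with DESeq2. Lyz1 and Ly6d also fell (log2 changes of -2.90 and -2.85) but were lost without single libraries, and reads of Lyz1 and of the ribosomal pseudogene Rpl13a-ps1 (-2.61) may have been split with near-identical genes.

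**Figure D4:**
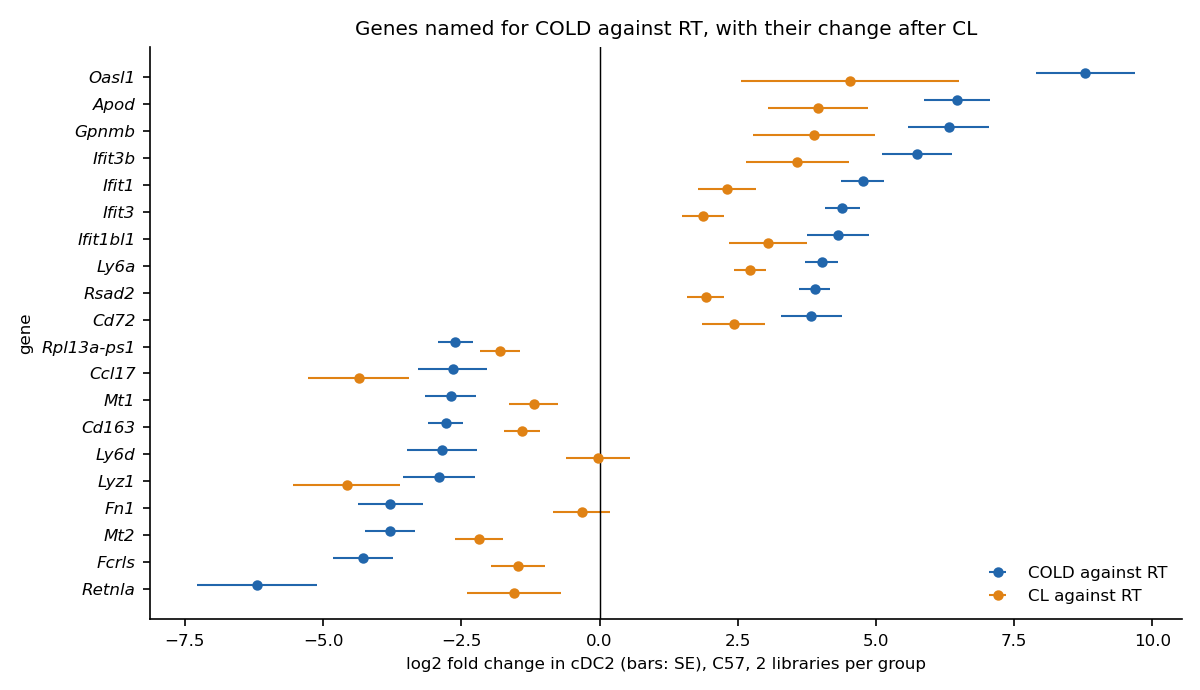
Log2 fold change in cDC2 with SE for the 20 genes with the largest changes between COLD and RT that met the naming rule, beside their change between CL and RT, from 2 C57 libraries per group. All 10 rising genes have smaller positive estimates after CL, Ly6d and Fn1 lie near 0 after CL, and the estimate of Oasl1, with no count at RT, depends on the prior count.

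Some genes of the sterol list fell after cold. Of 15 tested on the sterol list 5 fell and none rose, with all 15 estimates below 0 and a median of -1.25. With the replicate experiment as a block 8 of the 15 fell. Among them were Cyp51, a demethylase of the sterol pathway, and Insig1, which restrains that pathway when sterols are plentiful, with log2 changes of -1.32 and -1.25. Insig1 stood at 92.0 and 75.1 CPM at RT, 47.7 and 33.9 CPM after cold and 40.2 and 38.0 CPM after CL. Both treated groups lay below RT for Insig1. Its call was lost without the second COLD or the first RT library, and that of Cyp51 without the second COLD or either RT library. After CL none of the 15 passed with edgeR's quasi-likelihood test, with 11 at an unadjusted p under 0.05 and 2 by DESeq2, and the median was -1.54. Leaving out single libraries left 1 to 6 of the list called between COLD and RT, with 1 without the second COLD library, 1 without the first RT library and 2 without the second RT library.

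Of 19 chemokine and chemokine receptor genes tested 3 rose (Ccl3, Ccl4 and Ccrl2) and 2 fell (Ccl17 and Cxcl9). Ccrl2 was lost without the first RT library, and Cxcl9 without any one of the 4 RT and COLD libraries and with total-count scaling, so both falling calls were lost with single libraries left out. Ccl3, an inflammatory chemokine, stood at 81.6 and 82.9 CPM at RT, 336 and 366 CPM after cold and 176 and 120 CPM after CL, without overlap, and its log2 change between COLD and RT was 1.87 ± 0.22 (edgeR adjusted p = 0.00108). Ccl4, a chemokine of the same family, stood at 516 and 672 CPM at RT and 1397 and 1476 CPM after cold, and its call did not hold without any of the 4 RT and COLD libraries in turn. Spp1 (osteopontin) rose by 2.29 and was lost without either RT library.

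Presentation genes gave few calls. Of 11 genes of MHC class II presentation tested, 1 rose after cold, Lgmn (a lysosomal protease, log2 change 1.46, lost without the first COLD or either RT library), and the list, which leaves out H2-Ab1, summed to between 51951 and 77144 CPM in the C57 libraries. None of 11 genes of MHC class I presentation passed with edgeR's quasi-likelihood test (4 at an unadjusted p under 0.05, 0 by DESeq2), with a median log2 change of 0.39 and 10 of 11 estimates above 0. Their sum stood at 7414 and 8902 CPM at RT, 11990 and 14115 CPM after cold and 8820 and 10434 CPM after CL, so both COLD libraries were above the others. Of 13 genes of costimulation and maturation 2 rose, Nfkbie and Traf1 (log2 changes of 1.22 and 1.00), regulators of NF-κB signalling, but both were lost without any one of the 4 RT and COLD libraries. The cDC2 genes outside the rule, Tnfsf9, Clec4b1 and Ffar2, had log2 changes of 0.59, -0.08 and 2.75, of which none passed (1 at an unadjusted p under 0.05, 0 by DESeq2).

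Of 22 transcription factors 1 passed. Batf3, which cooperates with Irf4 and Irf8 in dendritic cells, stood at 141 and 133 CPM at RT, 57.1 and 62.9 CPM after cold and 123 and 150 CPM after CL, so only the cold libraries were low. Its log2 change was -1.41 ± 0.23 (edgeR adjusted p = 0.0053), lost without the first COLD library. Irf4 and Klf4 had log2 changes of -0.37 and 0.77 that did not pass. Of 8 cDC1 markers tested 1 rose (Cadm1), 1 fell (Batf3) and 6 did not pass, with 3 estimates above 0 and a median of -0.42. Cadm1 rose by 1.95 from 10.4 and 12.9 to 46.7 and 60.8 CPM, and was lost without any of the 4 RT and COLD libraries. Genes of the Toll-like receptor family (6 tested), cytokine receptors (18), S phase (19), G2 and M phases (17) and immediate early response (18) gave 0 calls with edgeR's quasi-likelihood test, with 1, 3, 1, 3 and 4 at an unadjusted p under 0.05 and 0, 0, 0, 0 and 2 by DESeq2.

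Markers of other cell types moved with some of these results. The T cell list, of which 2 of 5 genes tested fell (Cd3d and Lck), summed to 217 and 198 CPM in the RT members and 55.0 and 94.7 CPM after cold. Of the plasmacytoid list Klk1 and Cox6a2 fell, 2 of 7, and these 4 calls were each lost without at least 1 single library. Neutrophil markers summed to 753 and 711 CPM at RT, 109 and 69.3 CPM after cold and 40.1 and 3364 CPM after CL, with 0 of 3 genes called by edgeR's quasi-likelihood test (2 at an unadjusted p under 0.05, 0 by DESeq2). Erythroid genes summed to 3.09 and 1947 CPM at RT, 3818 and 629 CPM after cold and 0 and 3528 CPM after CL in C57, where the groups overlapped, and went from 851 to 11200 CPM in WT and from 0 to 10483 CPM in KO with cold. Adipocyte markers summed to 5.08 and 6.45 CPM at RT, 7.64 and 7.28 CPM after cold and 110.5 and 26.6 CPM after CL, so both CL libraries were the highest. Their part in the results was not tested.

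Calls between CL and RT depended on single libraries. Of 6865 genes 2 passed between CL and RT (0.0291%), both higher, while 582 had an unadjusted p under 0.05 and DESeq2 called 32. Without the second CL library 188 passed, 35 higher and 153 lower, without the first CL library 12 passed, and without the first RT library none did with edgeR (401 at an unadjusted p under 0.05). Ly6a rose by 2.72 ± 0.29 on the log2 scale (edgeR adjusted p = 0.00629), which was lost without the first RT library. Fabp4, a fatty acid binding protein of fat and endothelium, rose by 3.33 ± 0.37 (edgeR adjusted p = 0.00629) from 20.8 and 11.7 CPM to 227 and 139 CPM, but it was detected in 0.826 and 3.09% of members after CL, at 2000 counts per cell, against 4.67 and 0.806% at RT and 12.5 and 5.95% of B cells after CL. It was one of the genes with which the authors estimated free RNA, and its call was lost without either RT library. The adipocyte markers of the members, given above, were higher after CL too, and their part in this result was not tested. CL was compared with the same RT libraries as cold.

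None of the 28 interferon genes passed between CL and RT with edgeR's quasi-likelihood test, although 16 had an unadjusted p under 0.05, 3 passed with DESeq2, and all 28 estimates were above 0 with a median of 0.81. Between COLD and CL, a comparison that uses no RT library, 40 of 6865 genes passed (0.583%), 33 of them higher after cold (0.481%). Among the interferon genes 14 of 28 were higher after cold than after CL and none lower, with a median of 1.52. The count was 8 without either COLD library and 9 without the second CL library. Oasl1 had 209 counts after cold and 3 after CL, a ratio of 21.1 (7.12 to 103). Ifit2, Ifit3 and Ifit1 were higher by 3.18, 2.52 and 2.45, Serpina3g, a serine protease inhibitor of myeloid cells, by 2.74, and Cxcl10, an interferon-induced chemokine for T cells, by 2.25.

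The 6 genes lower after cold than after CL that met the naming rule were Fn1, Fabp4, Ear2 (an eosinophil-associated ribonuclease found in myeloid cells), Mrc1, Gda and Batf3, with log2 differences of -3.46, -2.53, -1.76, -1.68, -1.65 and -1.27. Apart from Fabp4, each lost its call without the second CL library, without the first COLD library and without the second COLD library. Serpina3g was lost without the second CL or second COLD library, and Cxcl10 without the first COLD library. With the sums thinned to a common total 0 genes passed between COLD and CL with edgeR (428 at an unadjusted p under 0.05), and 1 without possible doublets. The median of the interferon list was 1.31 and 1.33 in those fits.

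The Adrb1 line was not used in the C57 fit and has 1 library per group, so its values have no replicate check. Of the 148 genes higher after cold in C57, 128 were higher after cold in WT (86.5%) and 133 in KO (89.9%), beside 47.9 and 47.2% of all genes tested. Of the 166 genes lower after cold in C57, 62 were higher after cold in WT (37.3%) and 59 in KO (35.5%). The 10 named rising genes were higher after cold in both WT and KO, and 3 of the 10 named falling genes were higher after cold in each. Retnla went from 1815 to 141 CPM in WT and from 712 to 43.4 CPM in KO.

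The interferon list summed to 3160 CPM in WT at RT and 7562 CPM (95% Poisson interval 7445 to 7680) in WT after cold, and to 2151 CPM in KO at RT and 12915 CPM (12684 to 13149) in KO after cold. After cold the KO library was near both C57 libraries and the WT library below all 3. Of the 28 genes 23 were higher after cold in WT and 28 in KO. Irf7 went from 58.6 to 178 CPM in WT and from 25.6 to 526 CPM in KO, and Isg15 from 46.8 to 295 CPM and from 35.9 to 1005 CPM. With 1 pool of mice each, and 21 members in KO at RT, a difference between genotypes cannot be told apart from one between pools, and the intervals cover counting error only.

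The response to cold was then set against that of cDC1 of the same C57 libraries, with the library as a block. The difference between the responses passed in 46 of 7358 genes (0.625%), 29 more positive in cDC2 and 17 more negative. Plin2 had a log2 change of 2.07 in cDC2 and -0.46 in cDC1, a difference of 2.59 ± 0.31 (edgeR adjusted p = 0.000377). Cxcl10 stood at 122 and 72.5 CPM at RT and 282 and 210 CPM after cold in cDC2, and at 290 and 74.8 CPM and then 58.1 and 57 CPM in cDC1, a difference of 2.93 ± 0.32 (edgeR adjusted p = 0.000241). Ctsb (cathepsin B) differed by 2.48 ± 0.26, from a change of 0.47 in cDC2 and -2.03 in cDC1. These 3 differences passed without any one of the RT and COLD libraries.

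Other differences ran against cDC2. Plac8 rose by 1.02 in cDC2, which did not pass, and by 3.62 in cDC1, from 117 and 130 CPM to 1661 and 2033 CPM. Ifitm3, which blocks viral entry, had log2 changes of 0.94 in cDC2, a call lost without any one of the 4 RT and COLD libraries, and 2.26 in cDC1, while its level in cDC2 after cold, 5669 and 5699 CPM, stayed above that in cDC1, 755 and 965 CPM. The differences for Plac8 and Ifitm3 were lost without the second RT library. Batf3 fell by 1.41 in cDC2 and had a change of -0.15 in cDC1, a difference of -1.26 ± 0.23 that was lost without any one of the 4 libraries. Among the 28 interferon genes 2 differed between the classes, Oasl1 and Ifitm3, and the median difference was 0.67. In cDC1 19 of the 25 genes with an estimate rose, with a median of 1.71, against 2.65 for the same 25 in cDC2. The summed list of 28 genes went the other way, with a rise of 4.18-fold between the C57 means in cDC1 and 3.14-fold in cDC2.

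**Figure D5:**
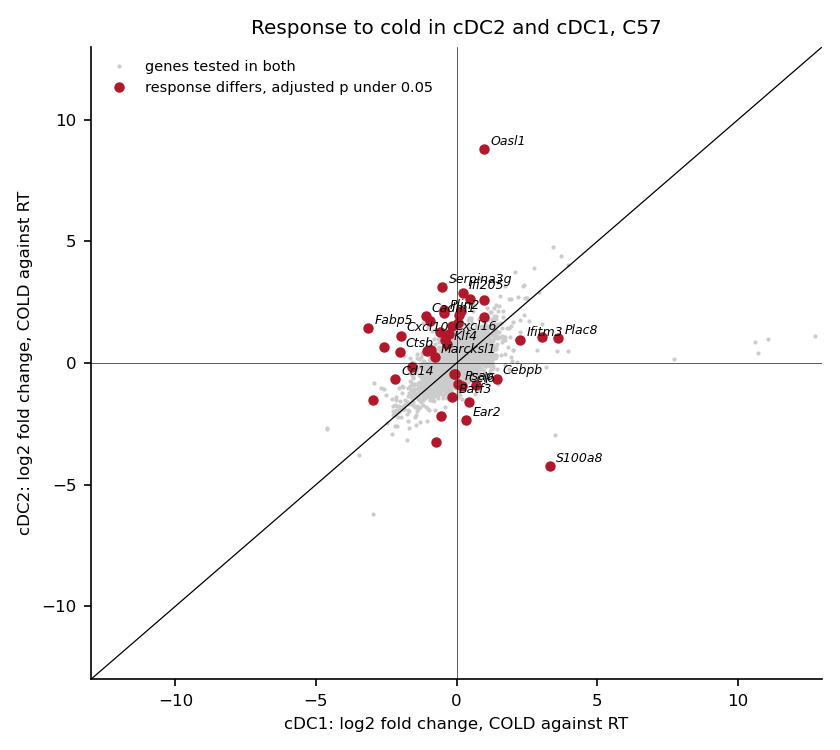
Log2 fold change between COLD and RT in cDC1 (horizontal) and cDC2 (vertical) of the C57 libraries, one point per gene, with the line of equal response. The 43 red points are genes whose responses differ at an adjusted p under 0.05 and that have an estimate in both classes. Plin2, Cxcl10 and Ctsb lie above the line, and Plac8, Ifitm3 and S100a8 below it.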

How the data were processed

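The authors aligned the 10X reads to mm10 with Cell Ranger 3.0.1 and deposited, per library, a matrix of estimated counts: unique molecular counts from which SoupX had subtracted free RNA, estimated from Fabp4 and Car3. The deposited expected counts are therefore mostly not whole (97.6 to 99.5% of non-zero values per library), and subtraction can lower genes of abundant cell types. They were summed over members per library, rounded to whole numbers and tested with edgeR 4.0.16 (R 4.3.3) by TMM scaling, filterByExpr and the quasi-likelihood test over all 6 C57 Lin+ libraries, with Benjamini-Hochberg adjustment over all genes tested, treatment as the only term, and 3 residual degrees of freedom. DESeq2 1.42.0 was an alternative. The 12 genes of the gate stayed in the fits, where 4 passed the filter on low counts, but were left out of named genes and lists. Il4i1 is among the 148 genes higher after cold, and nothing is read from it. SE is the log2 change divided by the root of the quasi-likelihood F. CPM divides by all counts of the members.

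Replicates are separate pools of mice and libraries, which differed by more than sampling noise. By the study's methods, C57 libraries with the same replicate number come from one experiment and so are paired, and their deviations correlated at 0.0855, 0.0869 and 0.0203. The number was left out of the fit and entered as a block in an alternative. Shares were compared by exact two-sided permutation tests, and binomial and Poisson intervals cover counting error only. Named genes were, per comparison, the 10 rising and 10 falling with the largest change among those with an adjusted p under 0.05, at least 50 CPM in the higher group and groups that did not overlap. Beside them stand genes from 32 lists. From each list the called members with the largest change are named, and Irf7, Isg15, Plin2, Irf4, Klf4 and the genes of the cDC1 comparison were named after their values were seen. No doublet caller was run. The rule left out cells past its limits on the macrophage, cDC1, mature DC, B and T genes it names, members can still hold counts of other classes, and an alternative left out members with 2 or more counts of B, T, NK, neutrophil, stromal and erythroid markers. The members and lists were chosen with earlier results of these data known. The fits were tested on simulated data. Values of a few genes are not reported here. Cycling calls and detection used cells thinned to 2000 counts. Comparison cells were gated on 2 or more counts of Xcr1 and Clec9a (cDC1) or 5 or more of C1qa and C1qb (macrophages). Monocytes were gated on 2 or more of Ly6c2 and B cells on Cd79a, each class with limits on genes of others.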

Additional observations from a re-analysis of the deposited data

Results flagged for a closer look

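The genes given here were picked because their response to cold differed between cDC2 and cDC1 by a test of the difference itself (the class by treatment term in edgeR's quasi-likelihood test, adjusted p under 0.05). Each value is the log2 response of cDC2 minus that of cDC1 in C57. Dixon's test was run on the cDC2 share, the cycling share, cDC2 per cDC1 and the interferon sum in the RT and COLD groups of 4 libraries over both lines, where no library stood apart, and on no single gene.

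Of 17 genes tested on the lipid handling and lysosome list 3 had a more positive and 1 a less positive response in cDC2, beside 0.625% of all genes called in either direction. Fabp5, a fatty acid carrier, differed by 4.47, Plin2 by 2.59 and Ctsb by 2.48, whereas Psap, a lysosomal activator protein, differed by -0.89. Fabp5 was lost without either RT library and without cycling cells, and Psap without either RT library, without the second COLD library and with DESeq2.

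Of the interferon-linked genes Oasl1 differed by 7.89, Cxcl10 by 2.93 and Ifi205 by 2.59, while Ifitm3 differed by -1.32. Oasl1 had 0 counts in the RT members, so its difference depends on the prior count and is no bound. Serpina3g differed by 3.71. Oasl1 and Serpina3g were lost without either RT library, Oasl1 also without cycling cells, Ifi205 without the first and Ifitm3 without the second. Among chemokines Cxcl16 differed by 1.42 and Ccl6 by -1.13, but Ccl6 was lost without any one of the 4 RT and COLD libraries, and Cxcl16 without the first COLD library, without either RT library and with DESeq2.

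Among transcription factors Klf4 differed by 1.10, Batf3 by -1.26 and Cebpb by -2.05. Cadm1 differed by 3.07 and Marcksl1, a regulator of actin, by 1.04. Batf3 was lost without any one of the 4 libraries, Cebpb without the second COLD or second RT library and Cadm1 without either RT library. Klf4, Marcksl1 and Cd14 were not called under any of the other settings tried.

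The monocyte and macrophage genes gave -2.57 for Plac8, -2.77 for Fn1, -2.69 for Ear2 and 1.48 for Cd14. Plac8 was lost without the second RT library, Ear2 without either RT library, and Fn1 without either RT library, without the first COLD library and with DESeq2. S100a8, a neutrophil gene, differed by -6.99, a call lost without either RT library, and it stood at 444 and 401 CPM in the RT members and 25.3 and 27.5 CPM after cold, with the neutrophil markers of the members moving alike, as given above. Their part in these differences was not tested.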

How the results depend on the processing

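The calls rest on 2 libraries per group, and a left-out library leaves an arm with 1, which is assumed to vary like the others. The share difference between COLD and RT in C57 was 2.81 with Cd209a at 1 or more, 1.93 without B cells and 2.07 after thinning to 1500 counts. CL minus RT was -1.13 and -0.455 in the last settings. Over both lines COLD minus RT was 1.92 without the minimum of 500 genes and 2.26 after thinning (exact permutation p = 0.0571 each). It was 2.09 to 2.83 without single libraries (exact permutation p = 0.0571, the smallest that 3 against 4 allows). The cycling difference between CL and RT reversed to -2.22 without thinning and to -2.65 and -2.34 without the first CL or the second RT library, within -2.65 to 2.74 over single libraries left out.

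Counts between COLD and RT were 762 with no filter, 48 with thinned sums, 1141 over 8 libraries of both lines (223 of the 314 among them) and 102 to 157 without single libraries, each of which moved it. Between CL and RT they were 32 with DESeq2, 146 with no filter, 1 with Cd209a at 3 or more, 1 with thinned sums, and 0 to 188 without single libraries: 0 without the first RT library (401 at an unadjusted p under 0.05), 12 without the first and 188 without the second CL library, and 3 without the second RT library. Between COLD and CL they were 225 with no filter, 14 with Cd209a at 3 or more, 1 without possible doublets, 0 with thinned sums and 14 to 140 without single libraries, 14 without either COLD library, 140 without the first and 26 without the second CL library. The cDC1 comparison gave 22 with DESeq2 and 9 to 29 without single libraries (11 and 9 without the first and second RT library, 27 and 29 without the first and second COLD library). Over 8 libraries Nfkbie and Tmsb10 reversed to -0.061 and 0.035. Thinned sums, total-count scaling and the denominator without B cells were chosen after seeing the data. The cause of these changes was not tested. With the replicate experiment as a block, by which the C57 libraries are paired, 395, 3 and 47 genes passed for the 3 comparisons, and beside the sterol count given above no call of a gene named in the report was lost.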

Other observations

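The share of cDC2 among Lin+ cells was set beside the share of cycling stromal cells in the Lin- library of the same pool. Stromal cells were those with 5 or more counts of Dcn, Col1a1 and Col3a1. Over the 6 experiments at COLD or CL, Pearson's r was 0.345 (exact permutation p = 0.486) and Spearman's rho 0.429 (exact permutation p = 0.419), 2 measures of one relation. Without the 2 experiments farthest from the median share (the second C57 COLD and the second CL) r was 0.150. The RT experiments, with at most 0.449% of stromal cells cycling, formed a separate group and were left out. The study reports a strong relation between its cluster of monocyte-derived dendritic cells and its proliferating and differentiating cluster. It states that this relation also held without basal values. Its measures were proportions of clusters, not gated shares and thinned counts, so the values here are of another quantity. From 6 experiments they do not show that a relation is absent.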
